A study of Rattus norvegicus with 6 samples.

Results

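The glycolysis and hypoxia response genes described here are 36 genes chosen by name: the glucose and lactate transporters, the enzymes that turn glucose into lactate, the hypoxia-inducible factor subunits with their prolyl hydroxylases, and reported targets of those factors. Of the 36, 35 were found among the 30560 genes of the deposited table. There, 34 carried the same symbol and Car9 was listed as Ca9, a synonym in RefSeq; Pgk1 was not analysed here. The choice used no measured value of these libraries, but was made with earlier results of the series known.

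RNA was sequenced from primary ventricular fibroblasts of newborn SD rats aged 1 to 2 days, in 3 libraries of cells given a miR-142-3p antagomiR and 3 libraries of cells given NC, the control oligonucleotide. Both groups were enriched by preferential attachment, kept overnight without serum and transfected with 50 nM oligonucleotide using Lipofectamine RNAiMAX. Attachment enriches fibroblasts but does not sort them, so other cells of the ventricle can remain. The labels do not say whether the 3 libraries of a group came from separate isolations, so each p-value reflects the spread among these 6 libraries alone. No library was labelled as hypoxic.

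Glycolysis splits glucose into pyruvate in the cytosol, and lactate dehydrogenase then reduces pyruvate to lactate, which leaves the cell through monocarboxylate transporters. Hypoxia-inducible factors are transcription factors made of an oxygen-labile alpha subunit (Hif1a or Epas1) and a stable partner. With oxygen present, prolyl hydroxylases mark the alpha subunit for degradation; at low oxygen it accumulates, and genes for glucose uptake, glycolysis and angiogenesis are transcribed. The proteins are therefore controlled largely after translation, which mRNA levels do not measure.

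The antagomiR is an antisense oligonucleotide directed at a mature microRNA, whose RefSeq sequence (GRCr8, chr10:73055155-73055177, plus strand) is shown because it defines the treatment, with the seed, bases 2 to 8, in capitals.
rno-miR-142-3p: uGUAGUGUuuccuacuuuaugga

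Promoter windows are shown for 4 members whose levels are described further on: Slc2a1, Eno2 and Adm, which rose, and Ankrd37, which fell. Each window runs from 250 bases before to 50 bases after the RefSeq start (GRCr8): Slc2a1 at chr5:138002272-138002571 (plus strand), Eno2 at chr4:159267171-159267470 (minus strand), Adm at chr1:174179950-174180249 (plus strand) and Ankrd37 at chr16:53001257-53001556 (plus strand). Capitals mark each ACGTG or GCGTG, the core of the hypoxia response element, on the printed strand, and CACGT or CACGC where the core lies on the opposite strand. ACGTG and CACGT overlap within CACGTG.
Slc2a1: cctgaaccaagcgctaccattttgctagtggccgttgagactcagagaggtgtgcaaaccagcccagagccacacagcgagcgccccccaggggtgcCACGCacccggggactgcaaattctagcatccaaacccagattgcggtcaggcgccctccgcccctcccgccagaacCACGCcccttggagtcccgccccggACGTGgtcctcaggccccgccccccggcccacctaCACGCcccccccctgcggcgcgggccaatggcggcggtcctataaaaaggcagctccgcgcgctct
Eno2: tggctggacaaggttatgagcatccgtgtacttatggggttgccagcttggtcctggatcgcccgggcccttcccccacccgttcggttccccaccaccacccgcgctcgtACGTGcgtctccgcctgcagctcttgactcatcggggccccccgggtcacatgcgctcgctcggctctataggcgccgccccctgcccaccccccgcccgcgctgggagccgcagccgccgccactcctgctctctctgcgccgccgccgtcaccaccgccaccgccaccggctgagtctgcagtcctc
Adm: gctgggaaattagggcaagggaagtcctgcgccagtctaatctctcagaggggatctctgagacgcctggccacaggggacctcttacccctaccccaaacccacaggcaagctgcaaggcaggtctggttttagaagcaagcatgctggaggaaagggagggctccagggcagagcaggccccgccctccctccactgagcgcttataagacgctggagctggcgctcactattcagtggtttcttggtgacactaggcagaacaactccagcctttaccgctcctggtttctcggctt
Ankrd37: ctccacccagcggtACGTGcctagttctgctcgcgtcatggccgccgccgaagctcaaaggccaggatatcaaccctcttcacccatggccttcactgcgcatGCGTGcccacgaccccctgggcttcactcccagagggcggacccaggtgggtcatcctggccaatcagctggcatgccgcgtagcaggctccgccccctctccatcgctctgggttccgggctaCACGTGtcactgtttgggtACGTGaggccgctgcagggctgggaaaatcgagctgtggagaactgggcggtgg

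The windows of Slc2a1, Eno2, Adm and Ankrd37 held 4, 1, 0 and 5 matches, counting each strand. RefSeq windows were found for 33 of the members, 39 windows in all, and 25 of these (64.1%) held at least 1 match, against 13937 of 33469 windows of the same length over all genes (41.6%). Of the members called below, 9 of 15 that rose and all 3 that fell had a match, as did 11 of the 14 tested members with a window that were not called. The windows of Epas1, Tpi1, Pkm, Slc16a3 and Egln3 held none. A match describes letters only, and enhancers outside the window were not searched.

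Levels are given as FPKM, fragments per length of gene and per library size, which allows comparison between genes. A gene was called changed where the limma test of log2(FPKM + 1), over the 12024 genes averaging 1 FPKM or more, gave a Benjamini-Hochberg adjusted p under 0.05. Log2 fold changes subtract the NC mean from the antagomiR mean of these log2 values, which understates the change of low genes. In such bulk samples fewer cells of a type and less RNA per cell cannot be told apart.

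The libraries held between 19472409 and 24622667 fragments, and the least covered tested member had 33 fragments in a library. Fibroblast markers were abundant, with a summed level of 12000 to 12260 FPKM in antagomiR libraries and 12750 to 12970 FPKM in NC libraries; of the 11 markers 6 rose and 3 fell. Among endothelial markers Emcn was at 0 in every library and 6 of 8 averaged under 1 FPKM. The 2 tested were both called. Tek rose, at 2.455 to 2.645 FPKM with the antagomiR and 1.569 to 2.015 FPKM with NC. Erg fell, at 3.47 to 5.864 FPKM with the antagomiR and 6.069 to 9.017 FPKM with NC. The summed cardiomyocyte markers were at 357 to 419 FPKM in antagomiR and 432 to 479 FPKM in NC libraries. Of the 9 tested, 3 rose (Myh7, Myl2 and Actc1) and 1 fell. The marker that fell was Tnnt2, the most abundant, at 226.8 to 276.4 FPKM with the antagomiR and 322.9 to 363.5 FPKM with NC. Smooth muscle and pericyte markers summed to 1903 to 2021 FPKM in antagomiR and 3111 to 3370 FPKM in NC libraries, with 0 called up and 6 down. Epicardial markers summed to 10.3 to 12.8 FPKM in antagomiR and 15.1 to 16.9 FPKM in NC libraries, with 0 called up and 2 down. NC replicate 3 stood apart. The 15 leukocyte and macrophage markers summed to 982 to 1092 FPKM in antagomiR libraries, against 148, 215 and 756 FPKM in NC replicates 1, 2 and 3. Lyz2 was the most abundant, at 483.6 to 565.8 FPKM with the antagomiR and 389.6 FPKM in NC replicate 3. Cd68, Mrc1, C1qa, C1qb and Cd53 were higher in NC replicate 3 than in every antagomiR library, and the other tested markers were lower. Of the 15, 14 were highest among NC libraries in NC replicate 3, 6 were called up, and Cd163 was at or near 0 throughout. All 14 tested glycolytic enzymes were also highest among NC libraries in NC replicate 3, as were 41.9% of all tested genes. The part of leukocyte RNA in the results below was not tested, and results are given with and without NC replicate 3 where that library changed a call or moved a value by over 1.5 times.

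Of the 34 members tested, 15 rose, 3 fell and 16 were not called. Over all tested genes 26.7% were called, 17.5% up and 9.21% down, against 18 of 34 members (52.9%). The ranges of the libraries did not overlap for 22 members (64.7%) and for 44.6% of all tested genes. The median log2 fold change was 0.23 over members and 0.06 over all tested genes. Among the called members only Epas1, Slc16a3, Egln3 and Eno2 had a ratio of means above 2-fold. Without NC replicate 3, 21 members were called up and 4 down, while 26.5% and 13.9% of all tested genes were. None of the 18 calls was lost by leaving out that library.

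**Figure D1:**
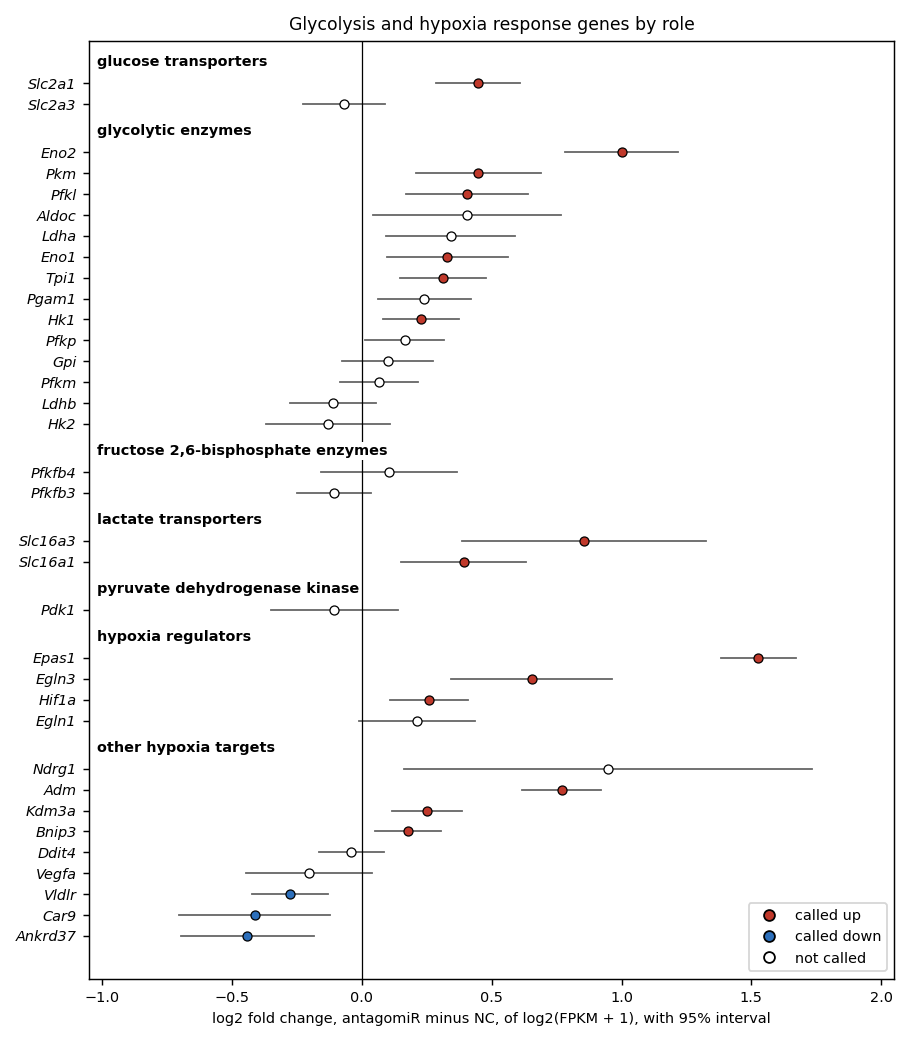
Log2 fold changes, antagomiR minus NC, of log2(FPKM + 1) for the 34 tested members grouped by role, with 95% confidence intervals; red points were called up, blue points down and white points not called. Enzymes and lactate transporters lie mostly right of 0, with Eno2 at 1.00, while the other hypoxia targets lie on both sides of it.

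Slc2a1, the basal glucose transporter of most cells (ENSRNOG00000007284, chromosome 5 from 132717196 to 132745416 in mRatBN7.2), was at 26.3, 25.2 and 24.3 FPKM in antagomiR libraries, against 17.6, 17.4 and 19.9 FPKM in NC libraries. All 3 antagomiR libraries were above all 3 NC libraries. Slc2a1 averaged 25.3 ± 1.01 FPKM with the antagomiR and 18.3 ± 1.43 FPKM with NC (SD, n = 3 each), and its log2 fold change was 0.45 (SE 0.07, limma adjusted p = 0.00353). Slc2a3, the high-affinity neuronal-type transporter, had 15.6 to 17.9 FPKM with the antagomiR and 16.8 to 18.4 FPKM with NC, and was not called (log2 fold change -0.07).

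Of the 14 glycolytic enzymes tested, 6 rose (Hk1, Pfkl, Tpi1, Eno1, Eno2 and Pkm), 0 fell and 8 were not called. Their median log2 fold change was 0.28, with a range from -0.13 to 1.00. Hk1, a hexokinase that traps glucose in the cell by phosphorylation, was at 46.9, 46.9 and 46.2 FPKM in antagomiR libraries, against 36.9, 39.9 and 42.6 FPKM in NC libraries (log2 fold change 0.23, SE 0.06, limma adjusted p = 0.0328). The groups did not overlap, but the call was lost without any 1 library other than NC replicate 3 (adjusted p 0.0636 to 0.107) and after both median-ratio scaling (0.108) and quantile normalization (0.058). Hk2, the insulin-regulated hexokinase, stayed between 5.02 and 6.43 FPKM with the antagomiR and 5.90 and 7.02 FPKM with NC, and was not called (-0.13). Gpi, which converts glucose 6-phosphate to fructose 6-phosphate, had 130.3, 130.8 and 126.9 FPKM with the antagomiR and 110.4, 119.2 and 133.5 FPKM with NC. The Gpi groups overlapped through NC replicate 3 (0.10, adjusted p = 0.371), and without it Gpi was called up (0.17, adjusted p = 0.0270).

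Phosphofructokinase makes the committed step of glycolysis. Pfkl, its liver-type subunit, was at 24.0, 23.0 and 22.5 FPKM in antagomiR libraries, against 14.8, 17.4 and 19.8 FPKM in NC libraries. Every antagomiR library was above every NC library (log2 fold change 0.41, SE 0.10, limma adjusted p = 0.0234), although the call was lost without any 1 antagomiR library or NC replicate 2 (adjusted p 0.0680 to 0.0874). The muscle-type Pfkm, at 9.11 to 9.44 FPKM with the antagomiR and 8.48 to 9.41 FPKM with NC, had a log2 fold change of 0.07, which turned to -0.06 after quantile normalization. The platelet-type Pfkp, at 16.4 to 17.4 FPKM with the antagomiR and 14.0 to 15.9 FPKM with NC, was called only without NC replicate 3 (0.16, adjusted p = 0.105 with it; 0.21, adjusted p = 0.0168 without it). Neither Pfkfb3 nor Pfkfb4, the bifunctional enzymes that set the level of the allosteric activator of phosphofructokinase, was called. Pfkfb3 had 12.4 to 12.9 FPKM with the antagomiR and 12.8 to 14.4 FPKM with NC (-0.11), and was called down after quantile normalization (-0.22, adjusted p = 0.0378). Pfkfb4 had 2.23 to 3.15 FPKM with the antagomiR and 2.30 to 2.61 FPKM with NC (0.10, and -0.05 after quantile normalization).

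Aldolase cleaves the hexose into triose phosphates. Aldoa, the form found in most tissues, was listed at 0.216, 0.223 and 0.331 FPKM with the antagomiR and at 0.212, 0.142 and 0.0697 FPKM with NC, so it was not tested. Such a listing near 0, for a gene that most cells use, is no measure of how much of it the cells made. Aldoc, the brain-type aldolase, had 1.51 to 2.64 FPKM with the antagomiR and 1.09 to 1.52 FPKM with NC. It had only 37 to 91 fragments a library. Its groups overlapped narrowly and it was not called (0.41, adjusted p = 0.0948), but was without antagomiR replicate 1 (0.55, adjusted p = 0.0428).

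Tpi1, which interconverts the triose phosphates, was at 147.3, 132.5 and 141.1 FPKM in antagomiR libraries, against 105.5, 111.7 and 121.5 FPKM in NC libraries. The groups did not overlap (0.31, SE 0.07, limma adjusted p = 0.0167), and the call was lost without antagomiR replicate 1 or 3 or NC replicate 2 (adjusted p 0.0621 to 0.0716). Pgam1, a phosphoglycerate mutase, was at 188.0, 187.5 and 182.3 FPKM with the antagomiR and 153.3, 145.0 and 175.0 FPKM with NC. These groups were also apart, but Pgam1 just missed the threshold (0.24, adjusted p = 0.0549) and was called without NC replicate 3 (0.32, adjusted p = 0.00142), after quantile normalization and by voom.

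Among the 14 tested member enzymes, the enolases gave both the most abundant, Eno1, and the one with the highest log2 fold change, Eno2. Eno1, the form of most tissues, was at 542.8, 505.4 and 503.1 FPKM in antagomiR libraries, against 370.6, 395.3 and 475.1 FPKM in NC libraries (0.33, SE 0.10, limma adjusted p = 0.0473). Its call was lost without any 1 library other than NC replicate 3 (adjusted p 0.106 to 0.153), without a filter (0.0907) and after median-ratio scaling (0.1006). Eno2, known as neuron-specific enolase (ENSRNOG00000013141, chromosome 4 from 157572088 to 157580980 in mRatBN7.2), was at 56.1, 52.9 and 55.7 FPKM in antagomiR libraries, against 24.98, 24.98 and 31.3 FPKM in NC libraries. Each antagomiR library lay well above the highest NC library. Eno2 averaged 54.9 ± 1.75 FPKM with the antagomiR and 27.1 ± 3.64 FPKM with NC (SD, n = 3 each), a 2.03-fold ratio of means (log2 fold change 1.00, SE 0.09, limma adjusted p = 0.000421). Its call held in all 13 alternatives.

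Pkm, pyruvate kinase, was at 266.7, 298.9 and 251.3 FPKM in antagomiR libraries, against 182.3, 190.1 and 226.8 FPKM in NC libraries. The ranges were apart (0.45, SE 0.10, limma adjusted p = 0.0173), and the call was lost without antagomiR replicate 1 or 2 or NC replicate 2 (adjusted p 0.0570 to 0.0680). Ldha, the lactate dehydrogenase subunit that favours lactate formation, was at 211.9, 200.3 and 200.3 FPKM with the antagomiR and 147.2, 147.8 and 190.9 FPKM with NC. Its groups did not overlap, yet it was not called (0.34, adjusted p = 0.0507) except after a 5 FPKM filter, quantile normalization, voom or removal of NC replicate 3 (0.47, adjusted p = 0.000215). Ldhb, the heart-type subunit, had 20.8 to 22.8 FPKM with the antagomiR and 21.8 to 25.4 FPKM with NC, and was not called (-0.11).

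Lactate leaves the cell through the monocarboxylate transporters Slc16a1 and Slc16a3, and both rose. Slc16a1 was at 7.19, 8.60 and 7.86 FPKM in antagomiR libraries, against 5.35, 5.33 and 6.67 FPKM in NC libraries (0.39, SE 0.10, limma adjusted p = 0.0289). Slc16a3, the exporter of glycolytic cells, was at 1.92, 1.91 and 1.80 FPKM in antagomiR libraries, against 0.334, 0.363 and 1.21 FPKM in NC libraries. Both pairs of groups were apart, but for Slc16a3 NC replicate 3 stood at more than 3 times the level of the other NC libraries. Its ratio of means was 2.95-fold (log2 fold change 0.85, SE 0.20, limma adjusted p = 0.0191) and 5.39-fold without NC replicate 3. The Slc16a1 call was lost without antagomiR replicate 2 or 3 or NC replicate 1 or 2 (adjusted p 0.0762 to 0.106), without a filter (0.0567) and after median-ratio scaling (0.0523) or quantile normalization (0.0988), and the Slc16a3 call without any 1 library other than NC replicate 3 (adjusted p 0.0512 to 0.0690). Pdk1, which inhibits pyruvate dehydrogenase, had 7.12 to 9.16 FPKM with the antagomiR and 7.93 to 9.20 FPKM with NC, and was not called (-0.11).

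**Figure D2:**
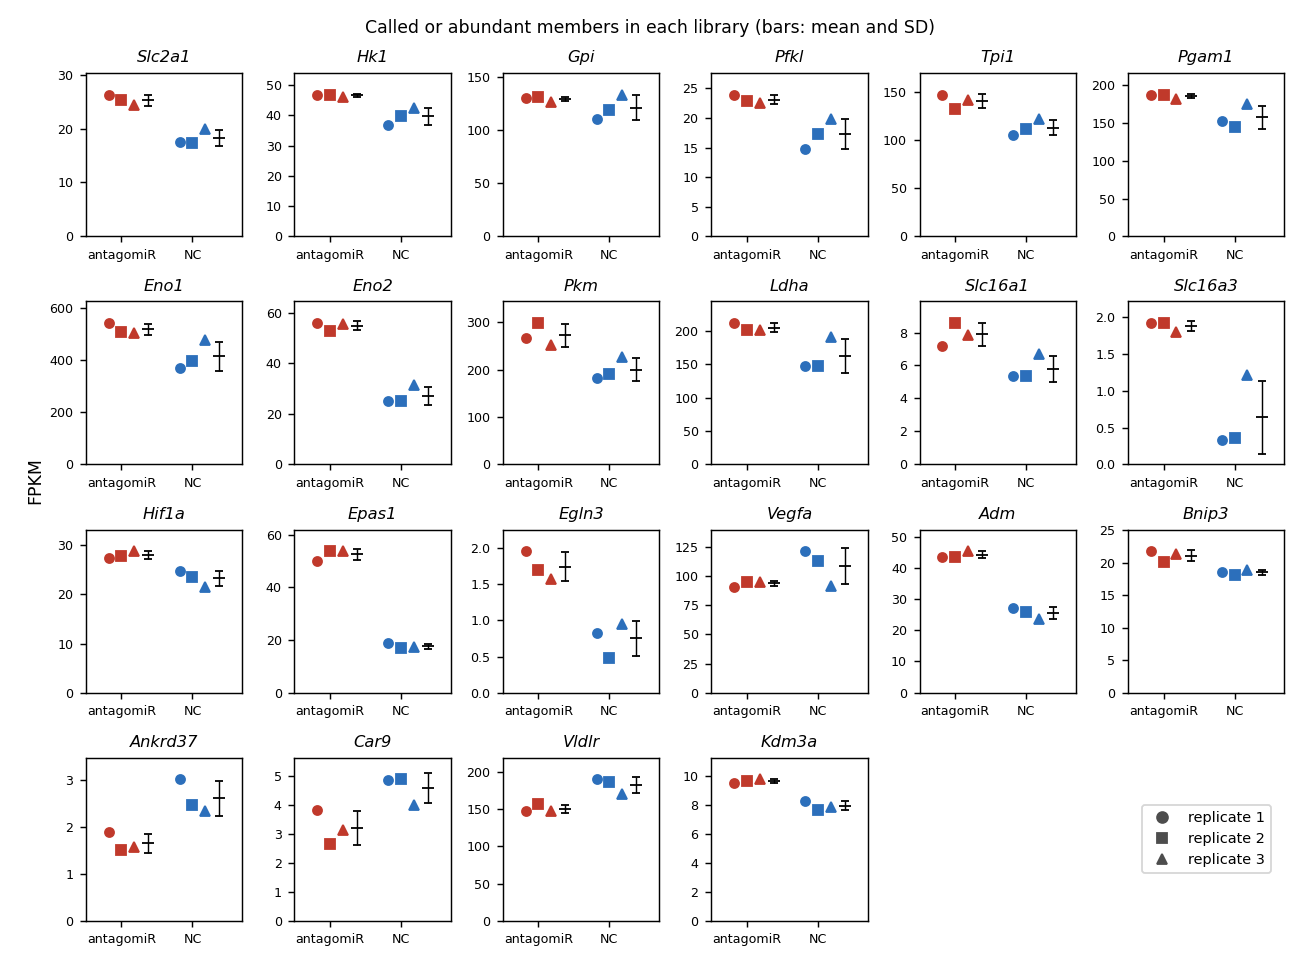
FPKM (linear axes from 0) in each library for the members that were called or averaged at least 100 FPKM; red symbols are antagomiR and blue symbols NC libraries, the symbol shape gives the replicate, and bars are the mean and SD (n = 3). Epas1 lies between 49.9 and 53.8 FPKM in antagomiR libraries, above all NC libraries at 16.9 to 18.8 FPKM, and the triangle of NC replicate 3 is the highest NC point for each enzyme.

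Where several isoforms catalyse a step, each isoform was also expressed as a share of the family's summed FPKM. Eno2 made up 9.41 ± 0.286% of enolase FPKM with the antagomiR and 5.98 ± 0.197% with NC (SD, n = 3 each). Ldha made up 90.4 ± 0.527% of lactate dehydrogenase FPKM with the antagomiR and 87.2 ± 0.968% with NC. Pfkl made up 47.1 ± 0.546% of phosphofructokinase FPKM with the antagomiR and 42.2 ± 2.66% with NC. In none of these did the groups overlap, but of the other isoforms only Hk1 had overlapping shares. The shares of Hk2, Pfkm, Pfkp, Eno1, Eno3, Ldhb and Slc16a1 were lower with the antagomiR, also without overlap. As levels of single genes, 44.6% of all tested genes had no overlap. With 3 against 3 libraries an exact permutation test cannot go below p = 0.1, so no test was made. Hk3, which is no member and is mainly a leukocyte hexokinase, made up 13.1 ± 0.485% of hexokinase FPKM with the antagomiR and 4.93 ± 4.32% with NC, where NC replicate 3 was at 9.90%. Slc16a3 made up 19.3 ± 1.56% of the lactate transporter FPKM with the antagomiR and 9.21 ± 5.35% with NC, where NC replicate 3 was again the highest at 15.4%.

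**Figure D3:**
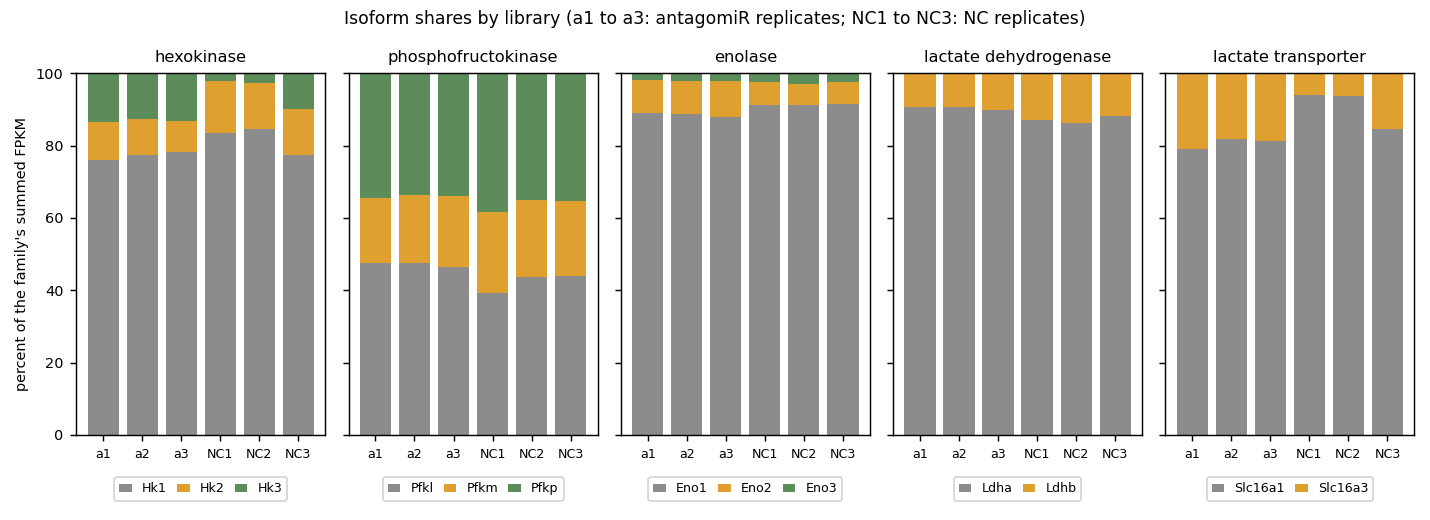
Share of each family's summed FPKM (percent, stacked bars from 0 to 100) taken by each isoform in the 3 antagomiR libraries (a1 to a3) and the 3 NC libraries (NC1 to NC3). Eno2 and Ldha take a larger share in every antagomiR library than in any NC library; for Hk3 and Slc16a3 the bar of NC3 lies between the antagomiR libraries and the other NC libraries.

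All 4 regulators had a positive log2 fold change and 3 were called. Epas1, the alpha subunit best known from endothelium (ENSRNOG00000021318, chromosome 6 from 7790647 to 7871228 in mRatBN7.2), was at 49.9, 53.8 and 53.7 FPKM in antagomiR libraries, against 18.8, 16.9 and 17.1 FPKM in NC libraries. The groups were far apart, and NC replicate 3 lay between the other NC libraries. Epas1 averaged 52.5 ± 2.20 FPKM with the antagomiR and 17.6 ± 1.02 FPKM with NC (SD, n = 3 each), a 2.98-fold ratio of means and the highest log2 fold change of the 34 tested members (1.53, SE 0.06, limma adjusted p = 1.93e-05). Hif1a, the widely expressed alpha subunit, was at 27.3, 27.8 and 28.9 FPKM in antagomiR libraries, against 24.8, 23.5 and 21.5 FPKM in NC libraries. The Hif1a groups were also apart, by a smaller amount (0.26, SE 0.06, limma adjusted p = 0.0233). Its call was lost without any 1 antagomiR library or NC replicate 2 (adjusted p 0.0644 to 0.1005), and after median-ratio scaling (0.0633) or quantile normalization (0.0714).

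The prolyl hydroxylases mark the alpha subunits for degradation and are themselves reported targets of the factors. Egln3 was at 1.97, 1.701 and 1.57 FPKM in antagomiR libraries, against 0.820, 0.483 and 0.955 FPKM in NC libraries. The groups did not overlap, at a low level of 33 to 123 fragments a library, and the ratio of means was 2.32-fold (0.65, SE 0.13, limma adjusted p = 0.0108; 0.60, adjusted p = 0.0505, without antagomiR replicate 1). Egln1, the main oxygen sensor of most cells, had 14.5 to 15.5 FPKM with the antagomiR and 11.7 to 15.1 FPKM with NC. Its groups overlapped through NC replicate 3 (0.21, adjusted p = 0.145), and without that library it was called up (0.31, adjusted p = 0.00419).

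Of the 9 other hypoxia targets, 3 rose (Adm, Bnip3 and Kdm3a), 3 fell (Ankrd37, Car9 and Vldlr) and 3 were not called. Their median log2 fold change was -0.04. Adm, which encodes the vasodilator peptide adrenomedullin (ENSRNOG00000027030, chromosome 1 from 164745466 to 164747654 in mRatBN7.2), was at 43.4, 43.6 and 45.5 FPKM in antagomiR libraries, against 27.2, 25.9 and 23.5 FPKM in NC libraries. No antagomiR library came near the NC range, within which NC replicate 3 was the lowest. Adm averaged 44.2 ± 1.13 FPKM with the antagomiR and 25.5 ± 1.89 FPKM with NC (SD, n = 3 each), a 1.73-fold ratio (0.77, SE 0.06, limma adjusted p = 0.000292). Kdm3a, a histone demethylase, was at 9.51, 9.66 and 9.80 FPKM in antagomiR libraries, against 8.29, 7.69 and 7.90 FPKM in NC libraries (0.25, SE 0.06, limma adjusted p = 0.0179). Bnip3, a receptor for the removal of mitochondria by autophagy, was at 21.8, 20.1 and 21.3 FPKM in antagomiR libraries, against 18.6, 18.1 and 18.9 FPKM in NC libraries (0.18, SE 0.05, limma adjusted p = 0.0483). Both had separate groups and small differences. The Kdm3a call was lost without any 1 antagomiR library or NC replicate 2 (adjusted p 0.06025 to 0.0843), and the Bnip3 call without any 1 library other than NC replicate 3 (0.0736 to 0.167). After quantile normalization neither was called (Kdm3a 0.12, adjusted p = 0.143; Bnip3 0.10, adjusted p = 0.222), and Bnip3 was not called by voom (0.0671) or after median-ratio scaling (0.166).

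The 3 targets that fell spanned a wide range of levels. Vldlr, a lipoprotein receptor, was at 147.2, 156.5 and 148.0 FPKM in antagomiR libraries, against 190.7, 186.7 and 170.4 FPKM in NC libraries (-0.28, SE 0.06, limma adjusted p = 0.0163). Car9, a cell-surface carbonic anhydrase that is a common hypoxia marker in human tumours, was at 3.81, 2.65 and 3.15 FPKM in antagomiR libraries, against 4.84, 4.89 and 3.99 FPKM in NC libraries (-0.41, SE 0.12, limma adjusted p = 0.0465). Ankrd37, an ankyrin repeat protein whose printed window held 5 matches to the response element core, was at 1.89, 1.5 and 1.57 FPKM in antagomiR libraries, against 3.02, 2.47 and 2.33 FPKM in NC libraries (-0.44, SE 0.11, limma adjusted p = 0.0233). In each case all antagomiR libraries lay below all NC libraries. The calls were lost without antagomiR replicate 1 or 3 or NC replicate 2 for Vldlr (adjusted p 0.0660 to 0.0797), and without antagomiR replicate 2 or 3 or NC replicate 1 or 2 for Car9 (0.1135 to 0.1415, and 0.0917 with no filter) and Ankrd37 (0.0574 to 0.0888).

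Vegfa, the angiogenic growth factor, was at 91.0, 95.3 and 94.9 FPKM with the antagomiR and 121.8, 113.2 and 91.6 FPKM with NC. NC replicate 3 alone lay in the antagomiR range. Vegfa was not called (-0.20, adjusted p = 0.188), and without that library it was called down (-0.32, adjusted p = 0.00201). Ndrg1, a stress-responsive gene, was at 7.92, 6.87 and 7.06 FPKM with the antagomiR and 2.14, 2.22 and 6.79 FPKM with NC. The groups just failed to overlap, with NC replicate 3 close below the antagomiR libraries. The ratio of means was 1.96-fold and Ndrg1 was not called (0.95, 95% interval 0.16 to 1.73, limma adjusted p = 0.0771). It was called by voom on all 6 libraries (1.21, adjusted p = 0.0277) and without NC replicate 3, where the ratio was 3.34-fold (1.38, adjusted p = 1.8e-05). Ddit4, an inhibitor of growth signalling through mTOR, had 25.1 to 27.6 FPKM with the antagomiR and 26.7 to 27.6 FPKM with NC, and was not called (-0.04).

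Set beside each other, the enzymes were called in 1 direction and the other targets in both. Relative to each gene's NC mean, the median over the 14 enzymes was 0.25, 0.24 and 0.25 on the log2 scale in antagomiR replicates 1, 2 and 3, against -0.10, -0.06 and 0.13 in NC replicates 1, 2 and 3. The median over the 9 other targets was 0.02, -0.04 and -0.11 in antagomiR replicates, against 0.06, -0.0024 and -0.10 in NC replicates. The enzyme medians thus separated the groups, with NC replicate 3 nearest to the antagomiR libraries, and the target medians did not. Over all tested genes the same median was 0.06 to 0.07 in antagomiR libraries and -0.01 to 0.01 in NC libraries. Without NC replicate 3, 10 of 14 enzymes were called up and 0 down, and of the 9 other targets 4 were called up and 4 down. In that setting 26.5% of all tested genes were called up and 13.9% down. After quantile normalization 7 enzymes were called up and 0 down, against 1 target up and 3 down, while 11.8% of all tested genes were called up and 15.5% down. The difference between the groups of genes was not tested.

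**Figure D4:**
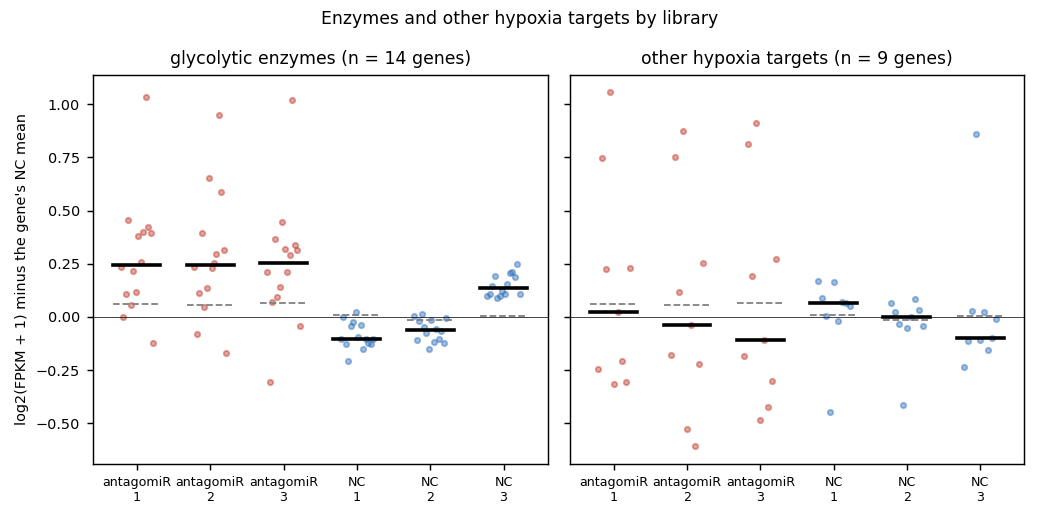
Log2(FPKM + 1) minus the gene's mean over the 3 NC libraries, for the 14 tested glycolytic enzymes (left) and 9 other hypoxia targets (right), 1 point per gene and library, antagomiR in red and NC in blue; black bars are medians of the genes shown and dashed lines medians over all tested genes. The enzyme medians lie at 0.24 to 0.25 in antagomiR libraries and at -0.10 to 0.13 in NC libraries.

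**Figure D5:**
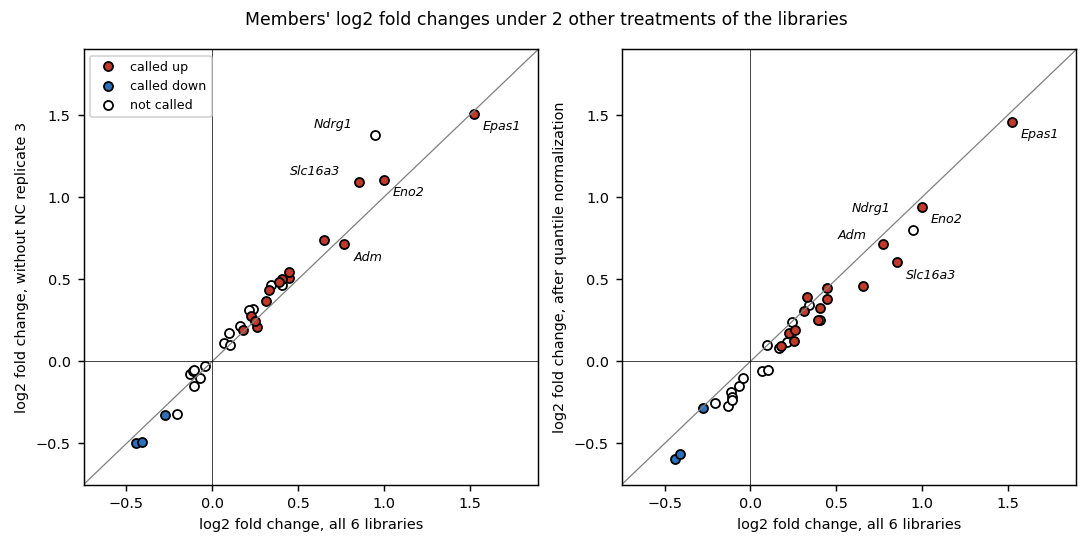
Each tested member's log2 fold change with all 6 libraries (horizontal) against the value without NC replicate 3 (left) or after quantile normalization (right), with the line of equality in grey; colours give the call with all 6 libraries. Most positive values move away from 0 without NC replicate 3, Ndrg1 to 1.38, and most values move down after quantile normalization.

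Neighbouring pathways were described from lists of other genes. Those named as gained without NC replicate 3 were chosen after their values were seen. The share called over all tested genes was 26.7%, and 40.4% without NC replicate 3. It was 22.2% (22.2% without that library) for other glycolytic enzymes, 42.9% (71.4%) for pentose phosphate genes and 25% (50%) for glycogen genes. For pyruvate entry it was 16.7% (33.3%), for other oxygen sensing genes 22.2% (33.3%) and for further hypoxia targets 45.5% (57.6%). Of 9 other glycolytic enzymes tested, 1 rose and 1 fell. Hk3 was at 8.28, 7.59 and 7.85 FPKM in antagomiR libraries, against 0.925, 1.31 and 5.45 FPKM in NC libraries, with NC replicate 3 far above the other NC libraries, as for the leukocyte markers. Its log2 fold change was 1.54 (limma adjusted p = 0.0323), the ratio of means 3.09-fold, or 7.08-fold without NC replicate 3, and its call was lost with no filter (adjusted p = 0.0700) and without any 1 other library (0.0764 to 0.109). Adpgk, an ADP-dependent glucokinase, fell by 0.17 (adjusted p = 0.0427; 0.0725 to 0.1495 without any 1 library other than NC replicate 3). Gapdh, chosen after its values were seen because it lies in the middle of the pathway and often serves as a reference gene, was at 418.7, 377.3 and 387.3 FPKM with the antagomiR and 324.8, 378.9 and 418.1 FPKM with NC; its groups overlapped and it was not called (0.08, adjusted p = 0.584). Rodent genomes hold processed pseudogenes of Gapdh and Ldha, and how reads were shared between such copies was not given in the sources used here.

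Of 7 pentose phosphate genes tested, 3 rose and 0 fell; without NC replicate 3, 5 were called up and 0 down, with Pgd (0.21, limma adjusted p = 0.00883) and Tkt (0.21, adjusted p = 0.0175) gained. H6pd, which oxidises glucose 6-phosphate in the endoplasmic reticulum, was at 7.64, 8.84 and 7.74 FPKM in antagomiR libraries, against 3.62, 3.98 and 5.04 FPKM in NC libraries, without overlap (0.81, limma adjusted p = 0.00253). Rpia (0.42, adjusted p = 0.0273) and Taldo1 (0.25, adjusted p = 0.0415), of the non-oxidative branch, were smaller changes. After quantile normalization neither was called (adjusted p = 0.0937 for Rpia and 0.0609 for Taldo1). The Rpia call was also lost without antagomiR replicate 2 or 3 or NC replicate 1 or 2 (0.0727 to 0.0986) and the Taldo1 call without any 1 library other than NC replicate 3 (0.0769 to 0.143). Without a filter on low genes neither was called (adjusted p = 0.0582 and 0.0637), nor was Taldo1 after median-ratio scaling (0.121). Of 8 glycogen genes tested, 2 rose and 0 fell; without NC replicate 3, Gyg1 was also called up (0.18, adjusted p = 0.0257). Pygl, the liver-type glycogen phosphorylase, was at 8.54, 8.94 and 7.42 FPKM in antagomiR libraries, against 3.21, 3.65 and 4.40 FPKM in NC libraries, again without overlap (0.97, limma adjusted p = 0.00108). Pygb, the brain-type enzyme, rose by less (0.23, adjusted p = 0.0300; 0.0675 after quantile normalization, 0.0889 after median-ratio scaling and 0.0740 to 0.115 without any 1 library other than NC replicate 3).

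Of 12 genes for the entry of pyruvate into mitochondria, 0 rose and 2 fell with all 6 libraries. Without NC replicate 3, 2 were called up and 2 down, with Pdk2 (0.30, limma adjusted p = 0.0147) and Pc (0.35, adjusted p = 0.0131) gained. By voom 1 was called up and 3 down, and after quantile normalization 0 up and 4 down. Both genes that fell with all libraries encode parts of the pyruvate dehydrogenase complex: Pdhb fell by 0.20 (limma adjusted p = 0.0197) and Dlat fell by 0.28 (adjusted p = 0.0298). The Pdhb call was lost without any 1 antagomiR library or NC replicate 2 (0.0534 to 0.0952). The Dlat call was lost without antagomiR replicate 1 or 2 or NC replicate 1 or 2 (0.0754 to 0.0975). Both calls were also lost with a replicate block, where 0 of the 12 genes were called. Of 9 other oxygen sensing genes tested, 2 rose and 0 fell; without NC replicate 3, Egln2 was also called up (0.27, adjusted p = 0.00554). Hif1an, which hydroxylates the factors' transactivation domain, rose by 0.32 (limma adjusted p = 0.0205), and Vhl, the ubiquitin ligase component that binds hydroxylated alpha subunits, rose by 0.30 (adjusted p = 0.0299). Neither was called after quantile normalization (adjusted p = 0.0795 and 0.0716), and calls were lost without any 1 antagomiR library or NC replicate 2 for Hif1an (0.0557 to 0.0817) and without any 1 library other than NC replicate 3 for Vhl (0.0710 to 0.1055, and 0.0699 after median-ratio scaling).

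Of 33 further reported hypoxia targets tested, 9 rose, 6 fell and 18 were not called; without NC replicate 3, 13 were called up and 6 down. The 4 with the smallest p all rose. Nos2, inducible nitric oxide synthase, was at 17.4, 15.1 and 14.7 FPKM in antagomiR libraries, against 0.0268, 0.0108 and 0 FPKM in NC libraries, where it had 2, 1 and 0 fragments (limma adjusted p = 1.17e-06). Igfbp3, a binding protein of insulin-like growth factors, was at 111.9, 130.1 and 135.6 FPKM in antagomiR libraries, against 20.4, 25.04 and 22.2 FPKM in NC libraries (2.43, adjusted p = 1.93e-05). The other two were P4ha2, a collagen prolyl hydroxylase (0.94, adjusted p = 6.46e-05), and the chemokine Cxcl12 (0.88, adjusted p = 0.000159). All 4 calls held in all 13 alternatives. Nos2 and Cxcl12 are also known as genes of inflammation.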

How the data were processed

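Polyadenylated RNA was sequenced as paired-end reads on an Illumina HiSeq, per the labels' protocols, in 3 antagomiR and 3 NC libraries. The build mRatBN7.2 and the tools cutadapt, FastQC, HISAT2, edgeR and HTSeq come from the submitters' processing notes. The order of steps, tool versions, annotation and strandedness are not given in the sources used here, so overlapping and antisense genes cannot be told apart. The values the authors deposited are FPKM per gene and library, with symbols and coordinates. All per-sample columns were assigned by name (0 unassigned).

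Whole fragment counts were recovered from the FPKM values: for 100% of the 20134 genes above 0, some gene length turned the 6 values into whole numbers to within 0.01, and recovered counts made up at least 99.66% of each library total. Replicates differed by more than sampling noise (chi-square over degrees of freedom 3.53 to 31.6), so no library repeated another.

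The test was limma 3.58.1 (lmFit, eBayes with trend; R 4.3.3) on log2(FPKM + 1), two-sided, for genes averaging 1 FPKM or more, with Benjamini-Hochberg adjustment over all of them and no replicate block. The procedure was tested on simulated data. Motifs and figures used Python 3.11 and pandas 2.3.3; sequences are from RefSeq GRCr8.

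Members and lists were chosen with earlier results of these data known. Every member is named, with the value in each library where it was called or averaged at least 100 FPKM. Of other lists, up to 4 called genes with the smallest p are named. Alternatives were a pseudocount of 0.1, no filter, a filter at 5 FPKM, quantile normalization, median-ratio scaling, voom on the recovered counts, a replicate block and leaving out each library, 13 in all.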

Additional observations from a re-analysis of the deposited data

How the results depend on the processing

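Over the 13 alternatives, single members kept direction and call in 345 comparisons, lost the call in 74, gained it in 15 and turned sign in 2. The 345 include members that were not called and stayed so. All 74 losses fell on the 18 called members, of which only 4 kept the call in every alternative. Both turns of sign came after quantile normalization (Pfkm -0.0575 and Pfkfb4 -0.0529, neither called). Gapdh, not called, ran from -0.0146 without NC replicate 1 to 0.167 without NC replicate 3. Leaving out 1 library gave 1883 to 4862 called genes (3216 with all), 5 to 25 called members (18), 5 to 21 up (15) and 0 to 4 down (3), 1 to 10 called enzymes (6) and 1 to 8 called other targets (6). The highest count was each time without NC replicate 3. A filter at 5 FPKM left 1 member called down, because Ankrd37 and Car9 were no longer tested. With the replicate block 2380 genes, 12 members, 4 enzymes and 3 other targets were called. The members whose call was lost with the block were Hk1, Eno1, Hif1a, Bnip3, Kdm3a and Car9. Of the other genes named, Adpgk, Taldo1, Pygb, Pdhb, Dlat, Hif1an and Vhl lost the call there. Same-numbered libraries did not deviate together (r = -0.158, -0.063 and -0.044), so no pairing by number was seen. With 3 libraries a group and NC replicate 3 apart from the other NC libraries, these values cannot exclude such a pairing. The median over all genes was -0.05 after quantile normalization, against 0.06 as deposited, with 1413 genes called up and 1869 down, against 2109 up and 1107 down; the members' median was then 0.15, with 12 called up and 4 down. Median-ratio scaling called 10 members up and 3 down. Eno2, Epas1, Adm and Slc2a1 were called in all 13 alternatives. Precision is limited by 3 libraries a group, and for Slc16a3, Egln3, Ankrd37, Aldoc and Pfkfb4 by fewer than 100 fragments in some or all libraries.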
